A study of Mus musculus with 4 samples.

Results

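Cycling macrophages of dystrophic muscle were taken as 266 cell barcodes from the 2 libraries of mdx5cv mice, 232 from quadriceps and 34 from diaphragm. They were 266 of 4634 mdx5cv barcodes called macrophages by the same rule, of 15736 mdx5cv barcodes past the quality limits, and of 28163 such barcodes in the whole series. A barcode counted as a macrophage if it held at least 5 UMIs (unique molecular identifiers, 1 per captured transcript) of C1qa, C1qb and C1qc, at least 1 of Adgre1 and Csf1r, and at most 1 of Pdgfra, Lum, Cdh5, Cd3e and Cd79a, which mark fibroblasts, endothelial cells, T cells and B cells. It counted as cycling if the UMIs of Top2a, Mki67, Birc5 and Cdk1, here called the cycle sum, came to 3 or more. They were compared with the 3983 mdx5cv macrophages whose cycle sum was 0, 2722 from quadriceps and 1261 from diaphragm. Macrophages with a cycle sum of 1 or 2, 305 in quadriceps and 80 in diaphragm, entered neither group.

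The series holds 4 libraries, 1 for each pairing of genotype (WT or mdx5cv) and muscle (quadriceps or diaphragm), all from mice aged 14 weeks. The mdx5cv mouse carries a mutation in Dmd, the gene for dystrophin, and is a model of Duchenne muscular dystrophy. Mononuclear cells were frozen, thawed and run in droplets with the 10x Genomics chemistry that counts transcripts at their 3' end. The labels give no number of animals per library, no sex and no sorting step, so each group is 1 sample and no difference between muscles or genotypes could be tested. Intervals below are exact 95% intervals that cover counting error only, and every ratio is a description of these libraries.

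A macrophage that enters the cell cycle copies its DNA in S phase, under genes switched on by E2F transcription factors. It then builds the mitotic spindle in G2 and M phase, under genes driven by B-Myb and FoxM1. Tissue macrophages can renew by local division, under growth factors such as CSF1 and IL-4, while others are replaced from blood monocytes. In dystrophic muscle, macrophages clear dead fibres, regulate stem cells and fibroblasts, and differ in how much MHC class II, the complex that presents peptides to CD4 T cells, they display.

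The label was checked against its markers. Mki67, the proliferation antigen, had a UMI in 78.4% of cycling macrophages of quadriceps and 88.2% of diaphragm, and Top2a, the topoisomerase that untangles replicated DNA, in 72.8% and 85.3%. Birc5, a subunit of the chromosomal passenger complex, had a UMI in 91.8% and 79.4%, and Cdk1, the kinase that starts mitosis, in 69.0% and 76.5%. No single one of the 4 genes therefore marked all members. C1qa, a chain of complement C1q, stood at 1695 CPM (the UMIs of a gene scaled to a fixed total over the summed cells) in cycling and 2451 CPM in cycle-sum-0 macrophages of quadriceps, and at 1949 and 2629 CPM in diaphragm. Adgre1, which encodes F4/80, stood at 433 against 675 CPM in quadriceps and at 317 against 562 CPM in diaphragm. The members were chosen by the UMIs of these genes, so the values are a description.

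Cycling macrophages held more RNA molecules than the others. Their median was 11303 UMIs against 5785.5 in quadriceps and 12323 against 6110 in diaphragm, and the means were 13028 ± 7487 (SD over cells) against 6671 ± 3869 and 12813 ± 7029 against 6737 ± 3481. A cycle sum of 3 is reached more easily at greater depth, so the rule and the depth cannot be told apart here. A gene with the same number of UMIs per cell in both groups has a log2 CPM ratio of -0.97 in quadriceps and -0.93 in diaphragm, and lower CPM in cycling cells is read against those values below. Genes detected per cell were 3239.5 against 2020.5 and 3206 against 2026, as medians.

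Free RNA was measured in barcodes with 10 to 100 UMIs. At its composition, a barcode of median depth for a cycling macrophage would hold 1.54 UMIs of the cycle genes in quadriceps and 1.01 in diaphragm, below the 3 required, whereas it would hold 27.6 and 20.7 UMIs of the C1q genes, above the 5 required. Deeper members, of up to 50147 UMIs in quadriceps and 32760 in diaphragm, would hold more of both, and single barcodes vary around such values. Whether free RNA brought any barcode past the cycle limit was not tested. The median cycling macrophage held 62.5 and 71.5 C1q UMIs, and the share of those that came from free RNA was not tested. Between 5 and 17 barcodes were shared by each pair of libraries, and 1 cycling macrophage of quadriceps had a barcode also seen in the mdx5cv diaphragm library. Just outside the rule lay 53 quadriceps and 11 diaphragm macrophages with a cycle sum of 2, and just inside it 28 and 3 with a cycle sum of 3. The former held 1706 CPM of the listed S-phase genes and 1231 CPM of the listed G2/M genes in quadriceps, the latter 2021 and 2448 CPM. In diaphragm the values were 2387 and 1384 CPM outside against 559 and 1548 CPM inside, the latter from 3 cells. Of cycle-sum-0 macrophages, 743 of quadriceps (27.3%) and 306 of diaphragm (24.3%) held 5 or more UMIs of the S-phase genes. Over the whole group these genes summed to 610 and 543 CPM, against 877 and 698 CPM in free RNA. Whether some of these cells were cycling was not tested.

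In quadriceps 232 of 3259 macrophages were cycling, 7.12% (6.26 to 8.06), and in diaphragm 34 of 1375, 2.47% (1.72 to 3.44). The same rule found 3 of 176 macrophages in WT quadriceps, 1.70% (0.353 to 4.90), and 2 of 132 in WT diaphragm, 1.52% (0.184 to 5.37). The intervals of the 2 mdx5cv muscles did not overlap, while that of mdx5cv diaphragm lay within that of WT diaphragm. Macrophages of the WT libraries were shallower, with medians of 2963 and 4024 UMIs against 6223 and 6319 in mdx5cv. With each cell thinned to 2000 UMIs, at least 1 UMI of the 4 cycle genes was left in 9.24% (8.25 to 10.3) of mdx5cv quadriceps macrophages and 4.14% (3.13 to 5.36) of mdx5cv diaphragm macrophages. In WT the thinned shares were 2.68% (0.736 to 6.73) and 3.10% (0.851 to 7.75). Thinning left out 131, 47, 27 and 3 shallower cells of mdx5cv quadriceps, mdx5cv diaphragm, WT quadriceps and WT diaphragm. The order of the muscles in mdx5cv was thus the same at equal depth, and 5 cycling cells in all of WT are too few to describe.

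Members were spread over the cycle. Each was called S-led or G2/M-led by whichever gene list, 42 replication genes or 55 mitosis genes, stood higher relative to its own mean over all members. In quadriceps 79 of 232 cells were S-led, 34.1% (28.0 to 40.5), and in diaphragm 19 of 34, 55.9% (37.9 to 72.8). The means are over members of both muscles, so these shares are relative and do not measure the cells in each phase. Macrophages just outside the rule, with a cycle sum of 2, held more CPM of S-phase than of G2/M genes. The effect of the rule on the shares was not tested. The plot of both sums per cell shows a continuous spread, and in quadriceps 16 S-led and 26 G2/M-led cells, in diaphragm 5 and 3, lay near the line between the calls, so the 2 classes are ranges and not cell types. S-led cells of quadriceps held a median of 83 S-phase and 36 G2/M UMIs, and G2/M-led cells 10 and 74.

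**Figure D1:**
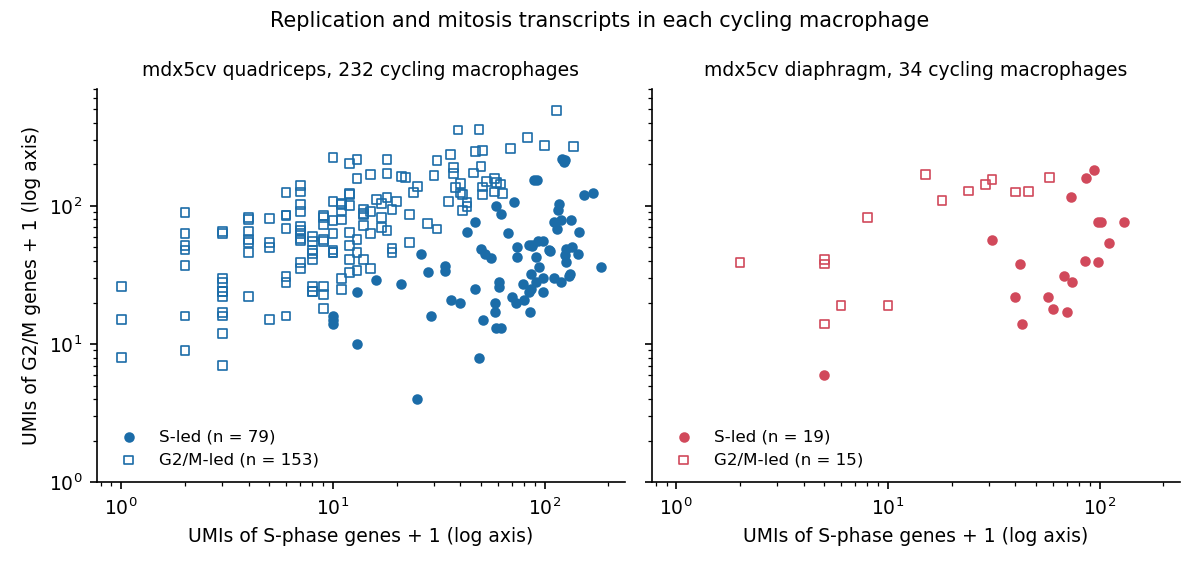
Each point is 1 cycling macrophage, with its UMIs of the S-phase genes on the horizontal and of the G2/M genes on the vertical log axis, 1 added to each. Filled points are S-led and open squares G2/M-led cells, 79 and 153 in quadriceps and 19 and 15 in diaphragm, and the 2 clouds touch along a diagonal.

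For the comparison across genes, UMIs were summed over cycling and over cycle-sum-0 macrophages within each mdx5cv library, and a gene was called if its CPM differed at least 1.5-fold the same way in both muscles, among genes with at least 20 CPM in the higher group in both. Of 5875 such genes, 739 were higher in cycling macrophages (12.6%), 322 were lower (5.48%) and 18 were past 1.5-fold in opposite directions (0.306%). Counted in 1 muscle at a time over the same genes, 18.3% were higher and 9.91% lower in quadriceps, and 19.6% were higher and 15.8% lower in diaphragm. Where the minimum was asked of quadriceps alone, its 6238 genes gave 19.2% in the upward and 9.81% in the downward direction. The 6320 genes past it in diaphragm gave 22.9% and 15.2%. The split between higher and lower calls moved with the setting, from 69.7% higher on CPM to 99.7% on UMIs per cell. It was 83.3% after thinning every cell to 2000 UMIs and 87.8% with a minimum of 3 UMIs in place of 20 CPM. A count below 3 in either group was set to 3 before a ratio was taken. After thinning or with the 3-UMI minimum, a gene with few or 0 UMIs in the members can thus come out higher. How many did was not counted. On CPM the median over all genes was a log2 ratio of 0.10 in quadriceps and 0.05 in diaphragm. On UMIs per cell it was 1.06 and 0.98. A list with a smaller median per cell thus lies below the typical gene even where that median is above 0. Because a gene can pass the minimum through the cycling group alone, counts and medians over listed genes describe the cells and support nothing about the lists.

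**Figure D2:**
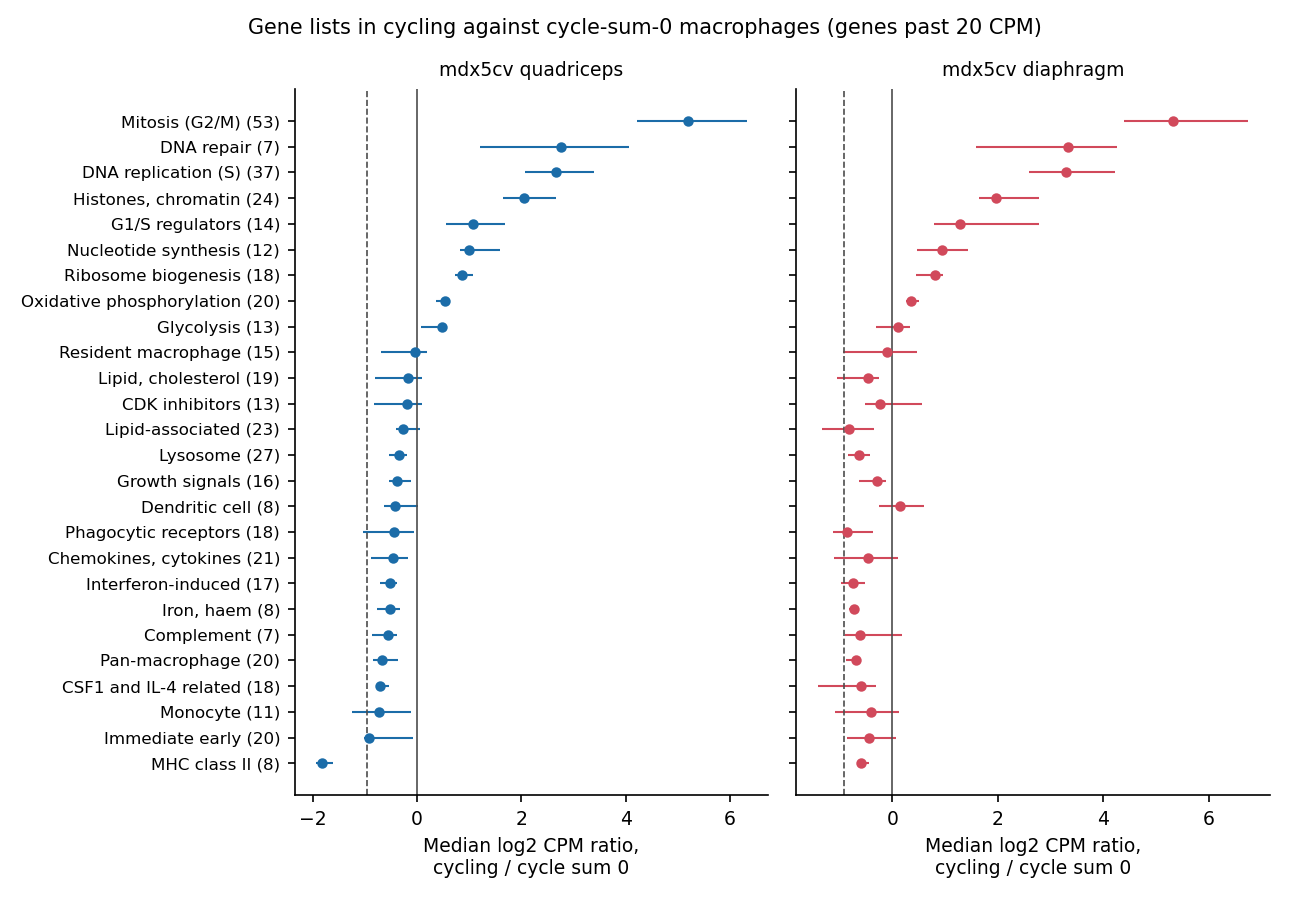
Points are the median log2 CPM ratio of cycling to cycle-sum-0 macrophages over the genes of each list that passed 20 CPM (their number in brackets), and bars run from the lower to the upper quartile of those genes. The dashed line marks equal UMIs per cell (-0.97 in quadriceps, -0.93 in diaphragm), and on that scale all lists shown but MHC class II of quadriceps lie to its right.

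Genes of mitosis led the comparison, which the rule sets in part. The comparison cells were chosen to hold 0 UMIs of Top2a, Mki67, Birc5 and Cdk1, so low levels of genes expressed with these are a description. Of 55 on the list, 53 passed the minimum and 52 were past 1.5-fold higher in both muscles, with a median log2 CPM ratio of 5.21 in quadriceps and 5.33 in diaphragm. Ccnb1, the B-type cyclin that activates Cdk1, stood at 119 against 1.49 CPM in quadriceps, 80.3-fold higher (54.3 to 124), and at 71.2 against 0.235 CPM in diaphragm. Cdc20, which switches on the anaphase-promoting complex, stood at 118 against 1.05 CPM, 113-fold higher (71.01 to 189), and at 50.5 against 1.29 CPM, 39-fold higher (18.1 to 89.1). Plk1, the polo-like kinase of spindle assembly, stood at 40.4 against 0.22 CPM in quadriceps and at 22.95 against 0 CPM in diaphragm, where it was at least 65-fold higher. Ube2c, the ubiquitin-conjugating enzyme of the same complex as Cdc20, stood at 398 against 7.38 CPM and 287 against 1.18 CPM. All 4 levels in cycle-sum-0 macrophages were small against those of the members. Ccna2, the cyclin of S and G2 phase, stood at 217 against 0.33 CPM in quadriceps and 202 against 0.235 CPM in diaphragm. Nusap1, which bundles spindle microtubules, stood at 135 against 0.33 CPM and 168 against 0.353 CPM. The exception was Pttg1, which encodes securin, the inhibitor of sister-chromatid separation, with log2 CPM ratios of 0.03 and -0.60.

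The promoters of the 3 mitotic regulators above and of 1 replication gene are shown because these genes were higher together in the members. Each window runs from 250 bases before to 50 after the gene's start in RefSeq on GRCm38.p6, printed 5' to 3' on the gene's strand. They are Ccnb1 (chr13:100786437-100786736, minus strand), Cdc20 (chr4:118437294-118437593, minus strand), Plk1 (chr7:122159185-122159484, plus strand) and Mcm5 (chr8:75109259-75109558, plus strand). In the first 3, capitals mark the CHR (cell cycle genes homology region, searched in the form TTTGAA and in a second form spelled TTCGAA) and the CCAAT box, searched by these letters. By this search the Ccnb1 window held 0 CHR, so its capitals are 2 CCAAT boxes. In Mcm5 they mark E2F motifs, searched in the form TTGGCGC, in another form spelled TTCCCGC, in a further form spelled TTGCCGC and in a last form spelled TTCGCGC. Both strands were searched, and matches to different forms can overlap.
Ccnb1: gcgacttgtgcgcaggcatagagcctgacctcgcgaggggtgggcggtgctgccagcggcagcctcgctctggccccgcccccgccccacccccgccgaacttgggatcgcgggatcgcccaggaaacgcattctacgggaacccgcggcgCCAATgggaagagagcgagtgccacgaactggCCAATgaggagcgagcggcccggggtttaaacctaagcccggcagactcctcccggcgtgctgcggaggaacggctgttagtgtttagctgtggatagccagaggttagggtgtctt
Cdc20: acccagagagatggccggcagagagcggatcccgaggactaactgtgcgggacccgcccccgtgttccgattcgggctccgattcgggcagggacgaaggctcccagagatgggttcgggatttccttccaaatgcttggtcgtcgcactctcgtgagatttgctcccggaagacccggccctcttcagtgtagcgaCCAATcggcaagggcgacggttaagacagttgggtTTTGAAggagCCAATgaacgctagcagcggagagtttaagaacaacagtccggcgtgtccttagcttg
Plk1: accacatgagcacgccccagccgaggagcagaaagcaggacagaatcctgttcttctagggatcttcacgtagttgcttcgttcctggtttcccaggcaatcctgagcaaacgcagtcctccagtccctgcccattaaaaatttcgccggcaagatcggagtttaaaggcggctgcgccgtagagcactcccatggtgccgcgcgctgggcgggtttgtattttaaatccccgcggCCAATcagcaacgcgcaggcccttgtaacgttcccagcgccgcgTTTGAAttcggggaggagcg
Mcm5: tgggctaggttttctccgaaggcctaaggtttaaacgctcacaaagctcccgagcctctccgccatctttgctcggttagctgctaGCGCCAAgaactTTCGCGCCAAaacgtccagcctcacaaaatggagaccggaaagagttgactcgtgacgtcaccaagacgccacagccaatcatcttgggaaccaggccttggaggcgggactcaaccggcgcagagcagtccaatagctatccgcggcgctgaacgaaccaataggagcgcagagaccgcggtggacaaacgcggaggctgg
Of the 55 mitosis genes, 46 had a window, and 30 of these held both a CHR and a CCAAT box (65.2%), against 1485 of 20267 windows of all measured genes (7.33%). A CHR alone or with other motifs was present in 34 (73.9%, against 18% of all windows) and a CCAAT box in 35 (76.1%, against 38.4%). An E2F motif was present in 7 (15.2%, against 11.4%). Of the 42 replication genes, 31 had a window, fewer than 80%, so no share is given for them. A match says only that these letters stand in the window.

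Genes of DNA replication were also higher. Of 42 on the list 37 passed the minimum, and 37 were past 1.5-fold higher in both muscles, with medians of 2.66 in quadriceps and 3.29 in diaphragm on the log2 CPM scale. Mcm5, a subunit of the replicative helicase, stood at 123 against 17.3 CPM in quadriceps, 7.1-fold higher (6.09 to 8.28), and at 147 against 11.7 CPM in diaphragm, 12.6-fold higher (9.06 to 17.4). Pcna, the sliding clamp of DNA polymerase, stood at 394 against 136 CPM, 2.9-fold higher (2.7 to 3.11), and at 381 against 111 CPM, 3.44-fold higher (2.9 to 4.06). Rrm2, the regulated subunit of ribonucleotide reductase, stood at 117 against 1.98 CPM, 58.9-fold higher (41.7 to 85.5), and at 149 against 3.41 CPM, 43.7-fold higher (27.8 to 70.2). Mcm5 and Pcna were well above 0 in cycle-sum-0 macrophages, and Pcna also in WT (85.04 CPM in quadriceps and 98.1 CPM in diaphragm). The mitotic genes were near 0 there. That group was chosen for a cycle sum of 0, so the contrast between the lists follows in part from the rule. Tk1, thymidine kinase, was 25.7-fold higher (19.96 to 33.4) in quadriceps and 59.4-fold higher (35.8 to 102) in diaphragm. Of 18 DNA repair genes, 7 passed the minimum and 5 were past 1.5-fold higher, among them Lig1, the ligase that joins Okazaki fragments, at 94.95 against 13.9 CPM and 163 against 16.1 CPM, and Brca1, of homologous recombination, at 22.2 against 0.826 CPM and 22.95 against 0.118 CPM.

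Regulators of entry into S phase were partly higher, 10 of the 14 that passed the minimum. Ccnd1, cyclin D1, which growth factors induce, was 2.04-fold higher (1.85 to 2.24) in quadriceps and 1.7-fold higher (1.31 to 2.18) in diaphragm. Ccne1, cyclin E1, stood at 20.5 against 1.05 CPM and 25.3 against 0.471 CPM, and Cdk2, Cdk4, E2f1, E2f2, Rbl1 and Myc were also past 1.5-fold in both muscles. Ccnd3, Cdk6, Rb1 and Rbl2 were not, with log2 CPM ratios between -0.14 and 0.88. Of 13 inhibitors and brakes of the cycle that passed, 3 were higher and 1 lower. Cdkn2c, which encodes the CDK4 and CDK6 inhibitor p18, stood at 98.9 against 12.6 CPM, 7.84-fold higher (6.58 to 9.36), and at 89.5 against 10.9 CPM, 8.18-fold higher (5.48 to 12.01). Cdkn2d, which encodes p19, was 3.61-fold higher (3.01 to 4.32) and 4.11-fold higher (2.77 to 5.95). Btg2, an antiproliferative gene, was 2.21-fold lower (2.03 to 2.41) and 2.13-fold lower (1.76 to 2.6), which is close to equal UMIs per cell. Cdkn1a, which encodes p21, stood at 162 against 214 CPM in quadriceps and 184 against 279 CPM in diaphragm, and Cdkn1b, which encodes p27, at 40.03 against 37.8 CPM and 50.5 against 35.3 CPM. Neither was past 1.5-fold the same way in both muscles. Cdkn1c, which encodes p57, was 4.35-fold higher (3.61 to 5.24) and 6.7-fold higher (4.4 to 9.98), but its UMIs came from 15 and 5 cells, and without the barcodes that also carried myogenic or collagen transcripts its quadriceps log2 CPM ratio was -1.01.

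All 24 histone, chromatin and tubulin genes of the list passed the minimum and were past 1.5-fold higher in both muscles, with medians of 2.05 and 1.97. Stmn1, stathmin, a destabiliser of microtubules, stood at 1146 against 52.1 CPM, 22-fold higher (20.5 to 23.7), and at 1423 against 28.4 CPM, 50.2-fold higher (43.2 to 58.5). Hmgb2, a chromatin protein of dividing cells, was 9.11-fold higher (8.6 to 9.65) and 10.04-fold higher (8.79 to 11.5). H2afz, a replacement histone, was 3.17-fold higher (3.08 to 3.26) and 3.94-fold higher (3.71 to 4.18). Ezh2, the methyltransferase of Polycomb repressive complex 2, was 8.31-fold higher (6.88 to 10.1) and 8.36-fold higher (5.76 to 11.96). Stmn1 had a UMI in 230 of 232 and 33 of 34 members although the rule did not use it.

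Outside the cell cycle lists, 607 of 5736 genes were higher in both muscles (10.6%) and 322 were lower (5.61%). The 12 that ranked highest were Pclaf, Foxm1, Neil3, Ska1, Esco2, Knl1, Cdkn3, Melk, Spag5, Aspm, Pimreg and Kif15, genes known from dividing cells that the lists did not hold. Pclaf, the PCNA-associated factor, stood at 339 against 3.86 CPM in quadriceps, 88.05-fold higher (69.1 to 114), and at 503 against 1.06 CPM in diaphragm, 475-fold higher (245 to 1052). Foxm1, the transcription factor of G2 genes, stood at 52.9 against 0.496 CPM and 91.8 against 0.471 CPM. Esco2, which acetylates cohesin in S phase, had no UMI in cycle-sum-0 macrophages of either muscle, and was at least 174-fold higher and at least 149.5-fold higher against a count of 3 over that group.

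Biosynthetic genes were higher by smaller ratios. Of 12 genes of nucleotide and one-carbon synthesis that passed, 8 were past 1.5-fold in both muscles, with medians of 1.0 and 0.94. Psat1, of serine synthesis, was 5.41-fold higher (4.42 to 6.61) and 4.66-fold higher (2.79 to 7.49), Mthfd2, of mitochondrial folate metabolism, 3.14-fold higher (2.53 to 3.89) and 2.91-fold higher (1.72 to 4.68), and Paics, of purine synthesis, 2.1-fold higher (1.85 to 2.37) and 2.23-fold higher (1.65 to 2.95). Of 18 genes of ribosome biogenesis 12 were past 1.5-fold (8 without myogenic or collagen barcodes and 5 after thinning), with medians of 0.85 and 0.80, among them Nop56, a core protein of box C/D particles, 2.1-fold higher (1.72 to 2.56) and 2.12-fold higher (1.38 to 3.13). Oxidative phosphorylation had medians of 0.52 and 0.35 with 2 of 20 genes past 1.5-fold, and glycolysis 0.49 and 0.10 with 0 of 13. Neither count exceeded the share of all genes higher in both muscles on CPM, 12.6%. With comparison cells weighted to the depth of the members, 0 of the 20 respiratory genes were past 1.5-fold. On UMIs per cell, a scale added after the CPM values had been seen, all 20 respiratory genes and 9 of the 13 glycolytic genes were past 1.5-fold higher in both muscles, against 3965 of all 5875 genes (67.5%).

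The genes that identify macrophages were lower on CPM and near level per cell. Of 20 pan-macrophage genes 9 were past 1.5-fold lower in both muscles, with medians of -0.68 and -0.68, and all 20 passed the minimum. With comparison cells weighted to the depth of the members the count was 4. Of all genes 5.48% were lower in both muscles on CPM and 3.69% with this weighting. Lyz2, lysozyme, stood at 8628 against 17165 CPM, 1.99-fold lower (1.96 to 2.01), and at 10274 against 19798 CPM, 1.93-fold lower (1.87 to 1.99). It held 112 against 115 UMIs per cell in quadriceps and 132 against 133 UMIs per cell in diaphragm, so its count per cell was nearly the same and its CPM was lower. Mertk, the receptor for the uptake of dying cells, was 2.56-fold lower (2.09 to 3.16) and 2.35-fold lower (1.36 to 4.43) on CPM and held 0.435 against 0.571 UMIs per cell and 0.382 against 0.472 UMIs per cell. Csf1r, the CSF1 receptor and a rule gene, held 5.69 against 4.81 UMIs per cell and 5.94 against 4.03 UMIs per cell. Summed over the list, cycling macrophages held 353 against 378 pan-macrophage UMIs per cell in quadriceps and 430 against 425 in diaphragm, and the median turned to 0.28 and 0.25 on the log2 scale of UMIs per cell.

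A few genes were lower on both scales. On UMIs per cell 12 of 5875 genes were at least 1.5-fold lower in both muscles (0.204%), namely Apoe, Selenop, Pla2g7, Retnla, Ccl5, Clec4n, Fcgr4, Slfn5, Hes1, Calhm6 and the predicted genes Gm10134 and Gm5086. In diaphragm the intervals of Fcgr4, Hes1, Calhm6, Gm10134 and Gm5086 included equal UMIs per cell. Calhm6, Gm10134 and Gm5086 each held only 0.088 UMIs per cell in the diaphragm members. Apoe, the apolipoprotein of cholesterol efflux, stood at 3109.6 against 9350.2 CPM in quadriceps, 3.01-fold lower (2.95 to 3.07), and at 2469.9 against 10739.6 CPM in diaphragm, 4.35-fold lower (4.09 to 4.62). It held 40.5 against 62.4 UMIs per cell in quadriceps and 31.6 against 72.3 UMIs per cell in diaphragm. Selenop, a secreted selenium carrier, was 3.22-fold lower (3.08 to 3.36) and 3.08-fold lower (2.73 to 3.47) on CPM, with 9.39 against 15.5 UMIs per cell and 8.29 against 13.4 UMIs per cell. Retnla, a gene induced by IL-4 in mouse macrophages, stood at 24.5 against 308 CPM, 12.6-fold lower (10 to 16.04), and at 25.3 against 90.1 CPM, 3.57-fold lower (1.98 to 7.17), while WT macrophages with a cycle sum of 0 held 15489 and 7420.3 CPM. Ccl5, a chemokine for T cells, had 7 UMIs over the 232 cycling macrophages of quadriceps and 4 over the 34 of diaphragm, and was 22.02-fold lower (10.6 to 54.9) and 7.65-fold lower (2.97 to 28.2). Pla2g7, a secreted phospholipase, was 3.75-fold lower (3.2 to 4.42) and 4.41-fold lower (2.98 to 6.83). Mpeg1, the perforin-like protein of macrophages, was 2.41-fold lower (2.3 to 2.54) and 2.63-fold lower (2.27 to 3.07) on CPM but did not reach 1.5-fold lower in both muscles per cell.

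**Figure D3:**
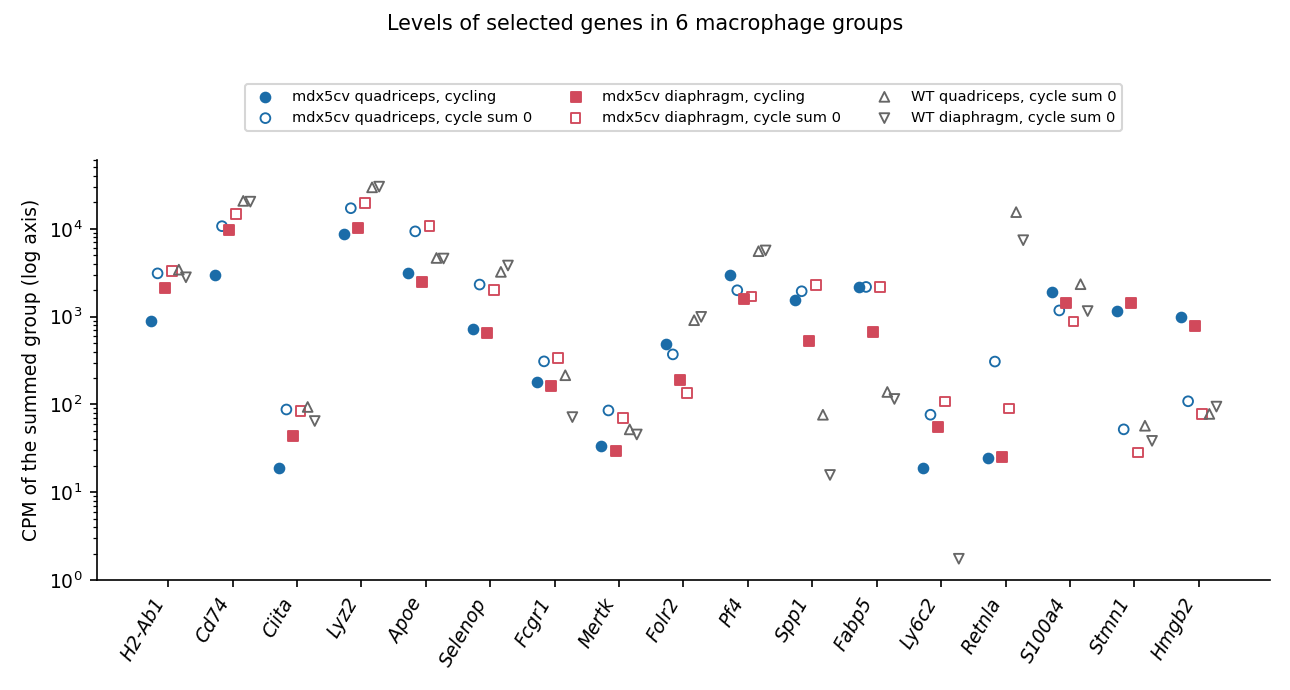
CPM on a log axis of 17 genes in cycling and cycle-sum-0 macrophages of both mdx5cv muscles and in cycle-sum-0 macrophages of both WT muscles, each group summed over its cells and a level of 0 not drawn. H2-Ab1, Cd74, Apoe, Selenop and Retnla lie lower in cycling cells (filled) than in cycle-sum-0 cells (open) of the same mdx5cv muscle, although H2-Ab1 and Cd74 of diaphragm are higher per cell, and Stmn1 and Hmgb2 lie higher.

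MHC class II genes set the muscles apart. Of 8 genes that passed, 5 were past 1.5-fold lower on CPM in both muscles, with a median log2 ratio of -1.83 in quadriceps and -0.59 in diaphragm, and taken alone quadriceps had 8 past it and diaphragm 5. The count of 5 was 2 without myogenic or collagen barcodes, 2 after thinning, 1 with another denominator and 0 with comparison cells weighted to the depth of the members. Of all genes 5.48% were lower in both muscles on CPM. H2-Aa, an alpha chain of the complex, stood at 1741 against 6795 CPM in quadriceps, 3.9-fold lower (3.8 to 4.01), and at 4843 against 7337 CPM in diaphragm, 1.51-fold lower (1.45 to 1.58). Cd74, the invariant chain, stood at 2954 against 10719 CPM, 3.63-fold lower (3.55 to 3.71), and at 9781 against 14698 CPM, 1.5-fold lower (1.46 to 1.55). Ciita, the transactivator of the class II genes, stood at 18.9 against 87.7 CPM and 43.6 against 83.9 CPM. Per cell the direction held in quadriceps and turned in diaphragm: summed MHC class II transcripts came to 92.5 against 174 UMIs per cell in quadriceps and 268 against 213 in diaphragm. H2-Ab1, a beta chain, held 11.6 against 20.7 UMIs per cell in quadriceps and 27 against 22.3 UMIs per cell in diaphragm. Free RNA of quadriceps held 1630.2 CPM of H2-Ab1, above the 892 CPM of cycling macrophages.

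Macrophages were then split by their UMIs of H2-Aa, H2-Ab1, H2-Eb1 and Cd74 after thinning to 2000 UMIs, with limits of 5 and 50 chosen after the values had been seen. In quadriceps, 134 of 745 macrophages with fewer than 5 such UMIs were cycling, 17.99% (15.3 to 20.9). The share was 7.20% (5.67 to 8.996) of the 986 with 5 to 49 and 1.93% (1.28 to 2.80) of the 1397 with 50 or more. The 3 intervals did not overlap. The classes differed in depth, with medians of 8229, 6935 and 5388 UMIs, and at 2000 UMIs per cell the shares with a cycle UMI were 18.8%, 8.62% and 4.58%. Cells with fewer than 5 made up 57.8% (51.1 to 64.2) of cycling and 20.3% (18.7 to 21.9) of cycle-sum-0 macrophages of quadriceps. In diaphragm 5 of 231, 14 of 383 and 15 of 714 macrophages were cycling, 2.16%, 3.66% and 2.10%, with intervals that all overlapped, and at equal depth the shares were 3.90%, 5.22% and 3.64%. There the class with fewer than 5 made up 14.7% (4.95 to 31.1) of cycling and 17.2% (15.1 to 19.5) of cycle-sum-0 macrophages.

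**Figure D4:**
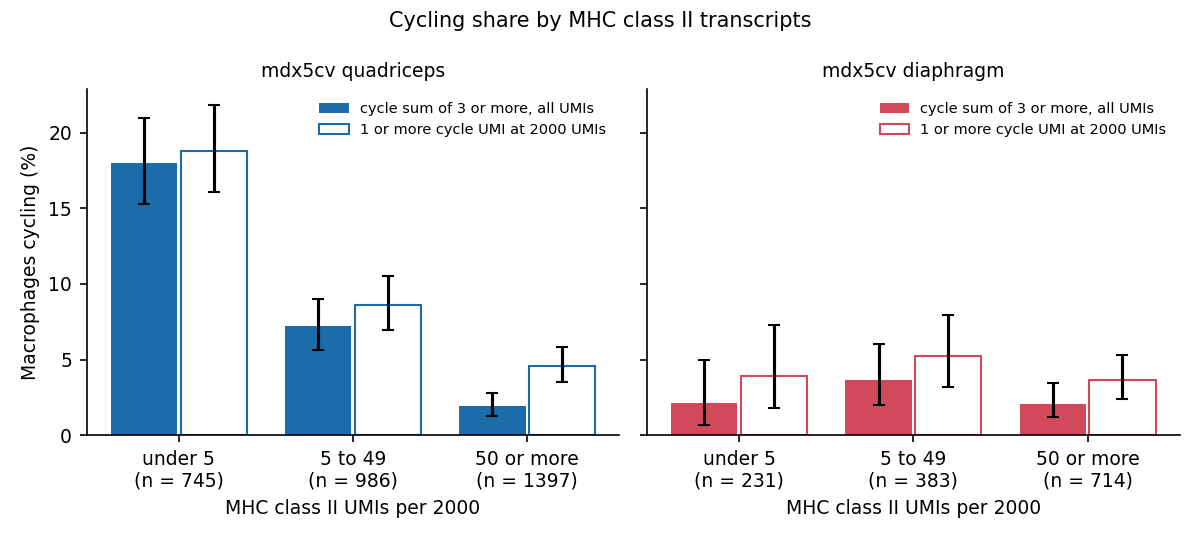
Bars give the percent of macrophages that were cycling by MHC class II UMIs per 2000 UMIs, filled for a cycle sum of 3 or more and open for at least 1 cycle UMI after thinning to 2000 UMIs, with exact 95% intervals. Filled bars step down from 17.99% to 1.93% in quadriceps and stay between 2.10% and 3.66% in diaphragm.

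Within cycling macrophages of quadriceps, the 134 MHC class II-low cells and the other 98 were set side by side. Of 6302 genes, 323 were 1.5-fold higher in the MHC class II-low cells (5.13%) and 527 were lower (8.36%). The medians of the S-phase and G2/M lists were 0.25 and -0.00, with 6 of 39 S-phase genes higher (15.4%) and 0 of 53 G2/M genes past 1.5-fold either way. Of 15 genes of resident macrophages that passed, 11 were higher and 2 lower, with a median of 1.01. Pf4, platelet factor 4, stood at 4017 against 1636 CPM, 2.46-fold higher (2.34 to 2.58), and Folr2, folate receptor beta, at 624 against 311 CPM, 2.01-fold higher (1.79 to 2.26). Gas6, the bridging ligand of Mertk and Axl, stood at 165 against 52.7 CPM, 3.13-fold higher (2.39 to 4.15), and Ccl8, a monocyte chemokine, at 255 against 84.9 CPM, 2.999-fold higher (2.43 to 3.74). The chemokines Ccl7 and Ccl2, ligands of Ccr2, were 2.64-fold higher (2.3 to 3.05) and 2.52-fold higher (2.24 to 2.84). Most of these genes were also higher in MHC class II-low cells among macrophages with a cycle sum of 0. Pf4 was 2.42-fold higher (2.37 to 2.47) there and Folr2 2.17-fold higher (2.06 to 2.28), while Gas6 was 1.38-fold higher (1.26 to 1.51) and Ccl8 1.08-fold lower (1.02 to 1.14).

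Monocyte genes went the other way in these cells, with a median of -1.09 and 7 of 12 genes lower, against a median of 0.19 among macrophages with a cycle sum of 0. Ly6c2, a surface protein of inflammatory monocytes, stood at 7.996 against 33.8 CPM, 4.23-fold lower (2.27 to 8.37), and was 1.23-fold lower (1.08 to 1.41) among cycle-sum-0 cells. Plac8, another monocyte gene, was 3.22-fold lower (2.18 to 4.85), and Ccr2, the chemokine receptor that brings monocytes into tissue, 2.01-fold lower (1.75 to 2.31). Interferon-induced genes had a median of -0.53 with 9 of 18 lower, against -0.12 among cycle-sum-0 cells. Fabp5 and Spp1, a fatty acid carrier and osteopontin, were 2.14-fold higher (2.02 to 2.26) and 2.13-fold higher (1.99 to 2.28) in MHC class II-low cells. The lipid-associated list had a median of 0.43 here and of 0.51 among cycle-sum-0 cells, so its shift was not particular to cycling cells. Among markers of other cells, 3 of 5 fibroblast and 3 of 4 muscle stem cell genes were lower in the MHC class II-low cells and 2 of 2 neutrophil genes higher, and their part in the other differences was not tested. Diaphragm held 5 such cells and was not described.

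Cycling and cycle-sum-0 macrophages were also compared inside the MHC class II-low class of quadriceps, 134 against 526 cells, an alternative added after the other values had been seen. Of 6155 genes 871 were 1.5-fold higher in cycling cells (14.2%) and 579 lower (9.41%). The G2/M and S-phase medians were 5.07 and 2.43, near those of all quadriceps macrophages. Monocyte genes had a median of -1.46 with 9 of 12 lower, pan-macrophage genes -0.46 with 8 of 20 lower, and immediate early genes -0.81 with 13 of 20 lower, all on CPM. The MHC class II median was -0.27, with 2 of 7 genes lower. Both groups were chosen for few class II UMIs, so that value is set in part by the choice. The members of this class were also deeper, with a median of 11878 UMIs against 7417.5.

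**Figure D5:**
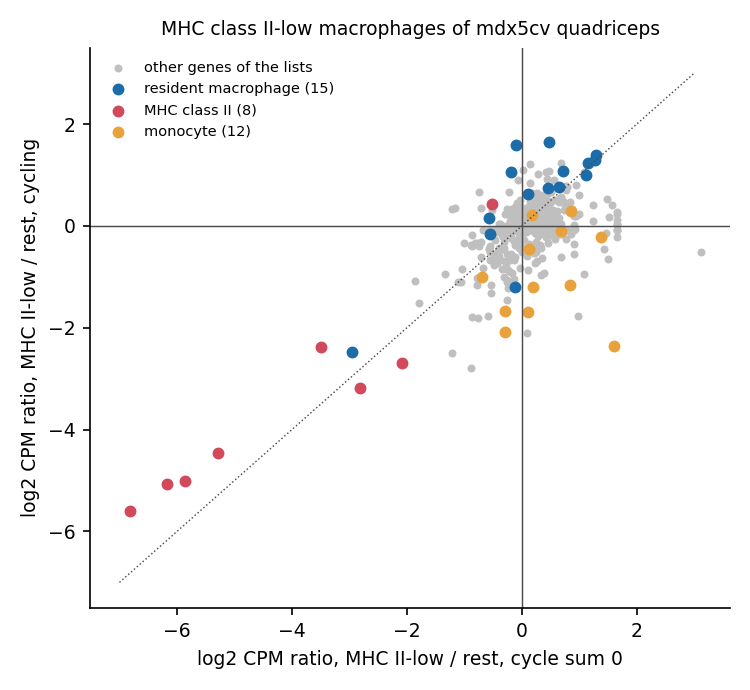
Each point is a gene of the lists in mdx5cv quadriceps, with its log2 CPM ratio of MHC class II-low to other macrophages among cycle-sum-0 cells on the horizontal and among cycling cells on the vertical axis, the dotted line marking equal ratios. Resident macrophage genes (blue) lie mostly above 0 on both axes, 11 of 15 past 1.5-fold in cycling cells, and 7 of 12 monocyte genes (orange) lie past 1.5-fold below 0 on the vertical axis.

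Against all cycle-sum-0 macrophages, resident genes were level and monocyte genes mostly lower on CPM. The resident list had medians of -0.04 and -0.10 on CPM, and 0.92 and 0.83 on UMIs per cell, where all genes had 1.06 and 0.98. Folr2 stood at 492 against 372 CPM in quadriceps, 1.32-fold higher (1.25 to 1.4), and at 191 against 136 CPM in diaphragm, 1.4-fold higher (1.1 to 1.75). Lyve1, a hyaluronan receptor of perivascular macrophages, stood at 12.9 against 4.68 CPM and 16.1 against 10.1 CPM, from 16 and 3 cycling cells, against 285 and 611 CPM in WT macrophages. At 2000 UMIs, 51.3% (44.7 to 57.9) of cycling and 34.2% (32.4 to 36.1) of cycle-sum-0 macrophages of quadriceps held a UMI of the resident marker genes, while 0.991% of quadriceps fibroblasts did. By that count the cycling share of quadriceps was 5.69% (4.71 to 6.80) with 0 such UMIs, 9.89% (7.92 to 12.2) with 1 or 2 and 11.7% (8.49 to 15.7) with 3 or more. In diaphragm it was 2.78%, 1.56% and 1.79%, from 30, 3 and 1 cycling cells. At equal depth the shares ran 7.50%, 11.99% and 12.95% in quadriceps and 3.98%, 4.69% and 5.36% in diaphragm, where the intervals overlapped.

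Of 11 monocyte genes that passed, 5 were past 1.5-fold lower in both muscles and 1 was higher on CPM, against 5.48% and 12.6% of all genes. Their medians were -0.73 and -0.40 on CPM and 0.23 and 0.52 per cell, against 1.06 and 0.98 per cell over all genes. Ly6c2 stood at 18.9 against 76.4 CPM, 4.05-fold lower (3.11 to 5.38), and at 55.1 against 108 CPM, 1.96-fold lower (1.31 to 3.07). Chil3, a chitinase-like protein, was 2.84-fold lower (2.18 to 3.78) and 5.98-fold lower (2.89 to 14.9). Ccr2 differed by muscle, at 279 against 456 CPM in quadriceps and 432 against 418 CPM in diaphragm. S100a4, a calcium-binding protein of motile cells, was the gene that was higher, 1.6-fold higher (1.55 to 1.65) and 1.61-fold higher (1.48 to 1.75). By UMIs of the monocyte marker genes at 2000 UMIs, the cycling share of quadriceps was 9.52% (8.08 to 11.1) with 0, 6.63% (5.16 to 8.38) with 1 or 2 and 3.72% (2.39 to 5.48) with 3 or more. Thinned to equal depth the 3 shares were 10.8%, 8.98% and 6.04%. In diaphragm they were 2.58%, 2.38% and 2.79%, and 4.51%, 3.57% and 4.18% at equal depth, with no step. In quadriceps 22.8% of fibroblasts held a UMI of these genes against 38.4% of cycling and 53.8% of cycle-sum-0 macrophages.

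Lipid-associated genes were close to level in quadriceps and lower in diaphragm on CPM, with medians of -0.28 and -0.83 over 23 genes. Per cell the medians were 0.69 and 0.09, against 1.06 and 0.98 over all genes. Of the 23 genes 2 were past 1.5-fold lower on CPM in both muscles, and 16 with comparison cells weighted to the depth of the members. The shares of all genes were 5.48% and 3.69%. Spp1 stood at 1546 against 1946 CPM in quadriceps, 1.26-fold lower (1.22 to 1.3), and at 535 against 2284 CPM in diaphragm, 4.27-fold lower (3.75 to 4.88). Fabp5 stood at 2189 against 2178 CPM in quadriceps and at 666 against 2157 CPM in diaphragm, 3.24-fold lower (2.89 to 3.65). Gpnmb, a glycoprotein of lipid-laden macrophages, was 1.26-fold lower (1.21 to 1.32) and 2.63-fold lower (2.17 to 3.22), and Trem2, a lipid receptor, 1.33-fold lower (1.26 to 1.41) and 2.13-fold lower (1.73 to 2.65). In WT cycle-sum-0 macrophages Spp1 stood at 76.4 and 15.8 CPM, so cycling cells of both mdx5cv muscles were above WT. By UMIs of the lipid-associated marker genes at 2000 UMIs, the cycling share of diaphragm was 4.41% (2.49 to 7.17) with 0, 2.30% (1.06 to 4.32) with 1 or 2 and 1.68% (0.806 to 3.06) with 3 or more, with intervals that overlapped. At equal depth those shares were 6.47%, 3.07% and 3.52%.

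Other lists of macrophage functions had medians below 0 on CPM and above 0 on UMIs per cell, but per cell below the 1.06 and 0.98 of all genes. Immediate early and stress genes had medians of -0.93 and -0.45, with 9 of 20 past 1.5-fold lower in both muscles, among them Fos, 1.92-fold lower (1.82 to 2.02) and 1.8-fold lower (1.61 to 2.01), and Hspa1a, an inducible heat shock protein, 2.03-fold lower (1.93 to 2.15) and 2.63-fold lower (2.36 to 2.94). The chaperonin gene Hspd1 went the other way, with log2 CPM ratios of 1.12 and 0.56. Genes of CSF1 and IL-4 signalling had medians of -0.72 and -0.59 with 8 of 18 lower, among them Cebpa, a transcription factor of the myeloid lineage, 2.03-fold lower (1.82 to 2.28) and 2.73-fold lower (1.95 to 3.93). Phagocytic receptors had medians of -0.45 and -0.87 with 5 of 18 lower, and lysosomal genes -0.34 and -0.63 with 6 of 27 lower. Interferon-induced genes had medians of -0.52 and -0.75 with 4 of 17 lower, and chemokines and cytokines -0.47 and -0.47 with 4 of 21 lower. Il1b, interleukin 1 beta, was 3.02-fold lower (2.36 to 3.93) and 2.58-fold lower (1.9 to 3.59). Il1b held 0.284 against 0.44 UMIs per cell in quadriceps and 1.24 against 1.68 UMIs per cell in diaphragm, so it was lower on both scales, and Hspa1a and Cebpa of diaphragm were too. With comparison cells weighted to the depth of the members, 3 of 20 immediate early genes and 1 interferon-induced gene were past 1.5-fold lower, but 14 lysosomal genes were. Over all genes the share lower in both muscles was 5.48% on CPM and 3.69% (212 of 5752) with this weighting.

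A minority of members also carried transcripts of other lineages. In quadriceps 17 of 232 cycling macrophages (7.33%) and in diaphragm 6 of 34 (17.6%) held at least 2 UMIs of 6 myogenic genes or at least 10 of 4 fibroblast matrix genes, against 48 of 2722 (1.76%) and 19 of 1261 (1.51%) with a cycle sum of 0. These barcodes held 98.7% and 100% of all myogenic UMIs of the members, which follows largely from their choice by those genes. They were deep, with medians of 26527 and 21880.5 UMIs against 11037 and 10812.5 in the other members. Myod1, the transcription factor of activated muscle stem cells, stood at 43.7 against 2.64 CPM and 48.2 against 1.06 CPM, 16.5-fold higher (11.8 to 23.5) and 45.5-fold higher (19.98 to 113). Col1a2, which encodes a collagen I chain, was 2.36-fold higher (2.13 to 2.62) and 3.61-fold higher (2.73 to 4.72). Without these barcodes it had a log2 CPM ratio of -0.09 in quadriceps, and they were chosen in part by its UMIs. Barcodes with the highest doublet scores included 23 of the 232 quadriceps and 2 of the 34 diaphragm members (9.91% and 5.88%), against 3.34% and 2.30% of cycle-sum-0 macrophages, and whether the myogenic or collagen barcodes are doublets was not tested. Leaving them out gave 627 higher and 291 lower genes against 739 and 322. Markers of T and NK cells summed to 0.993 CPM in quadriceps and 6.89 CPM in diaphragm, at or near 0.

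Between S-led and G2/M-led members, 329 of 5916 genes were 1.5-fold higher in S-led cells of both muscles (5.56%) and 291 in G2/M-led cells (4.92%). Outside the cycle lists the highest in S-led cells were Hat1, Siva1, Pa2g4, Rpa1, Rfc1 and Gmnn. Hat1, the acetyltransferase of newly made histone H4, was 2.59-fold higher (2.02 to 3.33) in S-led cells of quadriceps and 4.1-fold higher (1.91 to 10.1) of diaphragm. Gmnn, geminin, the inhibitor of replication licensing, was 2.72-fold higher (2.25 to 3.29) and 3.12-fold higher (1.59 to 6.69). Higher in G2/M-led cells was Hacd4, an enzyme of fatty acid elongation, 2.75-fold lower (2.19 to 3.48) in S-led cells of quadriceps and 3.15-fold lower (1.68 to 6.18) of diaphragm. Cdkn3, a phosphatase of Cdk2, was 4.37-fold lower (3.09 to 6.35) and 4.81-fold lower (2.25 to 11.4). The other 4, Cdkn1c, Postn, Gpx3 and Peg3, had UMIs in at most 32 cells of quadriceps and 6 of diaphragm. MHC class II genes had median log2 CPM ratios of S-led to G2/M-led cells of -0.15 and 0.08.

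Cycling macrophages of the 2 muscles were set side by side on CPM. Of 6422 genes 1023 were at least 1.5-fold higher in quadriceps (15.9%) and 660 in diaphragm (10.3%), and the 34 diaphragm cells limit the precision. Ctsl, the lysosomal protease cathepsin L, stood at 1167 CPM in quadriceps and 266 CPM in diaphragm, 4.38-fold higher in quadriceps (3.64 to 5.32), and at 1202 and 818 CPM in cycle-sum-0 macrophages. Fabp5 stood at 2189 and 666 CPM, 3.29-fold higher in quadriceps (2.92 to 3.71), against 2178 and 2157 CPM in cycle-sum-0 macrophages. Among cycle-sum-0 macrophages the ratio of quadriceps to diaphragm was 1.47 for Ctsl and 1.01 for Fabp5, and its difference from that among cycling cells was not tested. Lpl, lipoprotein lipase, was 3.75-fold higher in quadriceps (3.08 to 4.6) among cycling cells, and Cd36, a fatty acid receptor, 3.91-fold higher in quadriceps (2.91 to 5.37). Lpl differed similarly among cycle-sum-0 cells, at 1016 and 322 CPM. Cxcl2, a chemokine for neutrophils, stood at 106 CPM in quadriceps and 1382 CPM in diaphragm, 13.1-fold higher in diaphragm (11.4 to 15.04), with UMIs in 45 of 232 and 15 of 34 cells and up to 268 in 1 diaphragm cell. Of the other genes that ranked highest in diaphragm, Saa3, Alox15, Prg4 and Prtn3 came from 1 diaphragm cell each, Slpi and Lrg1 from 2 and Ubash3a from 3. In quadriceps all 530 UMIs of Cfd, an adipocyte gene, lay in 1 cell and Myog, a myogenic factor, came from 5 cells. Col1a1 stood at 127 and 29.8 CPM and had up to 300 UMIs in 1 quadriceps cell.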

How the data were processed

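The authors deposited 1 unfiltered matrix of UMI counts per library, whole numbers per gene and barcode with no normalization. Per the submitters' processing notes Cell Ranger 5.0.0 and mm10 were used, while the file headers name Cell Ranger 4, and for the gene annotation the sources used here give none. Library totals ran from 18837891 to 62780685 UMIs, and 28163 barcodes passed at least 1000 UMIs, 500 genes and at most 15% mitochondrial UMIs. Shallower libraries and the 34 diaphragm members give wider intervals.

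From these counts, UMIs were summed by library and cell group, scaled to CPM and compared as ratios with exact 95% intervals (Python 3.11.15, NumPy 2.4.6, SciPy 1.17.1, pandas 2.3.3). With 1 library per group no test was run and no p-value is given. A count below 3 in either group was set to 3 UMIs over that group before a ratio was taken. With 0 in the comparison group this gives a lower bound, and beside 1 or 2 UMIs only the levels are printed. Where the members held fewer than 3, it can make a ratio too high. The call was also run on Poisson counts of 5434 genes, simulated from 1 pooled macrophage profile per library. It found 50 of 50 genes raised 4-fold, 47 of 50 raised 2-fold, 40 of 50 lowered to 0.5 and 48 of 50 lowered to 0.25, and 1 of 5237 unchanged genes. These counts had no spread between cells and no choice of members by their UMIs. They show the effect of counting error alone and give no rate of false calls for the real cells.

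Genes were named by rule: the rule genes, up to 5 per list called in both muscles, the 12 highest and 12 lowest outside the cycle lists, the leading genes between muscles and between phases, and the 4 genes with promoters. Other list genes named in the text were chosen after their values were seen. The members and lists were chosen with earlier results of these data known. Scrublet (scanpy 1.11.5) called 0 of 8334 quadriceps barcodes, so its call did not work there, and 313 of 7402 diaphragm barcodes (4.23%), none of them a member; no doublets were removed except as an alternative. Figures were drawn with matplotlib 3.10.9.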

Additional observations from a re-analysis of the deposited data

Results flagged for a closer look

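On CPM, Cxcl2 lay in opposite directions in the 2 muscles. Its log2 CPM ratio of cycling to cycle-sum-0 macrophages was -0.63 in quadriceps and 1.39 in diaphragm, a gap of 2.02, and the difference was not tested. On UMIs per cell it was higher in cycling cells of both, at 1.38 against 1.09 in quadriceps and 17.7 against 3.55 in diaphragm. In diaphragm 268 of its 602 UMIs lay in 1 cell. Slpi, a secreted protease inhibitor, differed by 2.05 in the same sense on CPM, and this difference was not tested either. On UMIs per cell the log2 ratio of Slpi was 0.34 in quadriceps and 2.35 in diaphragm. In quadriceps that is a ratio of 1.27 (0.796 to 1.94), an interval that included equal UMIs per cell. In diaphragm 152 of its 153 UMIs lay in 1 cell.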

How the results depend on the processing

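No paired analysis was possible because each group is 1 library. Of the results that answer a comparison, 261 values under the alternatives stayed within the interval of the main value, 29 moved out of it and 6 turned direction. Of single genes and the remaining list medians 3558, 502 and 29 did so. For counts of genes the range was 1.5-fold either way. A turn was counted only from a main ratio past 1.5-fold, and for single genes only if its interval left out equality. Smaller ratios could change sign uncounted. The monocyte median of diaphragm did so within its interval, from -0.40 on CPM to 0.52 on UMIs per cell. UMIs per cell, leaving out myogenic or collagen barcodes, and the MHC class II-low cells alone were alternatives chosen after seeing the data. The cause of a change was not tested unless the setting itself makes it.

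With a mitochondrial limit of 5% the cycling share of quadriceps was 4.98% (52 of 1045), and with a cycle sum of at least 5 or at least 2 it was 5.68% or 8.75%. The number of genes lower in both muscles was 212 weighted to equal depth, 164 after thinning and 12 on UMIs per cell, and a minimum of 50 CPM, which tests fewer genes, gave 366 higher and 181 lower. The number higher was 3076 with a minimum of 3 UMIs and 3965 on UMIs per cell. The median over all genes moved to 0.42 in diaphragm after thinning and to 0.44 with the 3-UMI minimum. Both medians and the 3076 can include genes with a count below 3 in the members that was set to 3, which raises the ratio.

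Pan-macrophage medians were -0.60 in diaphragm with a cycle sum of at least 2, -0.36 and -0.45 at equal depth, and -0.58 in diaphragm with the cycle genes out of the denominator. Immediate early genes of quadriceps had -1.04 without the highest Scrublet scores and -1.04 as a mean over cells. At equal depth the medians were 0.29 for resident genes in quadriceps, -0.76 and -1.40 for lipid-associated genes, -0.070 for MHC class II in diaphragm and 0.024 for complement in diaphragm, which stood at 0.54 with 3 UMIs. In MHC class II-low cells alone the MHC class II median was -0.27, which the choice of those cells sets in part.

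On UMIs per cell the medians in quadriceps and diaphragm were 3.62 and 4.21 for S phase, 0.28 and 0.25 for pan-macrophage, 0.92 and 0.83 for resident, 0.69 and 0.094 for lipid-associated, -0.86 and 0.33 for MHC class II, 0.039 and 0.48 for immediate early, and 0.24 and 0.34 for CSF1 and IL-4 genes. Over all genes the medians on that scale were 1.06 and 0.98. In quadriceps G2/M stood at 6.17 and monocyte genes at 0.23. In diaphragm interferon stood at 0.17, phagocytic receptors at 0.057, complement at 0.31, lysosome at 0.29 and iron at 0.19.

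Single genes counted as turned in direction had these log2 ratios. With the 5% mitochondrial limit Cdkn1c had -1.53, Ifit1 0.067, Col1a2 -0.93, Col3a1 -0.31 and Rgs5 2.27 in quadriceps, and Fabp4 0.10 and Col1a2 -0.20 in diaphragm. With no UMI of other lineages Col3a1 had -0.086 in quadriceps. Without the highest Scrublet scores Col1a2 had -0.20 and Col3a1 -0.44 in quadriceps, and Dcn 0.12 in diaphragm. At equal depth Hpgd had 0.092 and Ighm 0.069, and after thinning Bhlhe41 had 0.72 and Col3a1 -0.071, in diaphragm. Without myogenic or collagen barcodes Cdkn1c had -1.01, Col1a2 -0.086, Col3a1 -0.14 and Des -0.23 in quadriceps, and Col3a1 -0.62 in diaphragm. Col1a2, Col3a1 and Des were among the genes by which those barcodes were chosen, so their changes follow in part from the choice. The number of members, 34, limits the diaphragm values.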
